A study of Felis catus with 15 samples.

Results

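The respiratory chain is the set of protein complexes in the inner mitochondrial membrane that pass electrons from NADH and succinate to oxygen, pump protons, and use the resulting gradient to make ATP. Complexes I, III and IV pump protons, complex II feeds electrons from succinate without pumping, cytochrome c carries electrons between complexes III and IV, and complex V is the ATP synthase. Most subunits are encoded in the nucleus and imported, but a small core of complexes I, III, IV and V is transcribed from mitochondrial DNA as long precursor RNAs and translated inside the organelle, so each of these complexes joins products of both genomes. Some cells of the epididymal epithelium are rich in mitochondria and spend ATP on acidifying the duct and on moving ions and water.

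Members were chosen by gene symbol: NDUFA, NDUFB, NDUFC, NDUFS or NDUFV plus a number, all symbols starting with UQCR or ATP5, SDHA to SDHD, CYC1, CYCS, a fixed set of COX subunits, and the 13 protein-coding genes of mitochondrial DNA. The rule found 80 members among the 38995 genes of the count table, 67 nuclear and 13 mitochondrial. Of the nuclear members 36 belonged to complex I, 4 to complex II, 5 to complex III, 4 to complex IV and 18 to complex V. Of the mitochondrial members 7 belonged to complex I, 1 to complex III, 3 to complex IV and 2 to complex V. Cytochrome c itself (CYCS), COX4I1, COX5A, COX6A1, COX6B1, COX6C, COX7B and COX7C had no matching symbol and are not analysed here, and neither is UQCRFS1. NDUFA4, whose name places it in complex I, is counted with complex IV, where its protein is now known to sit.

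Poly(A)-selected, strand-marked RNA libraries came from the corpus (middle region) of the domestic cat epididymis, in 3 groups of 5: corpus explants cultured with extracellular vesicles from the caput (the upstream region), coded D3EV; corpus explants cultured without them, coded D3; and fresh corpus tissue, coded D0. The libraries of a group were deposited as replicates 1 to 5. The labels do not say which animals they came from, so p-values measure the spread between these libraries, which may be technical in part. The design asks what vesicles from an upstream region do to the corpus transcriptome, with fresh tissue as the starting point. Library totals ran between 17308832 and 27420218 counts.

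Levels are given as CPM, counts brought to a common library size with TMM scaling (a trimmed mean of log ratios between libraries), and groups were compared with edgeR's quasi-likelihood test on the counts. A gene was called when its Benjamini-Hochberg adjusted p over all genes tested was under 0.05. All 80 members passed the filter on low counts, which kept 18038 genes. CPM is not corrected for transcript length, so levels are compared between libraries and not between genes.

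The library labelled culture replicate 3 stood apart from the other 14 in these genes. The 13 mitochondrially encoded genes held 0.179% of its counts (95% Wilson interval 0.178% to 0.181%, counting error only), against 6.23% to 7.48% in the other 4 culture libraries. Its 67 nuclear members together held 0.508% of its counts, inside the range of the other cultures, but they were spread far apart. It lay above all other 14 libraries in 25 nuclear members and below all of them in 32, or 37.3% and 47.8% of the 67, while the same shares over all 18038 genes tested were 22.5% and 24.7%. NDUFA13, a small membrane subunit of complex I, stood at 383 CPM in this library against 84.3 to 112 CPM in the other cultures, and UQCR10, a small subunit of complex III, at 6.85 CPM against 54.9 to 61.9 CPM. Values of the culture group are therefore given with all 15 libraries and without this one (left out after its values had been seen). Because all groups share an estimate of spread, this library also widens the errors of vesicle-treated explants against fresh tissue.

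Summed CPM of cell type markers also moved with culture. Such sums are led by their most abundant markers, and single markers are not given here. Summed over 12 epididymal epithelium markers, explants with vesicles had 4272 to 7472 CPM, explants without had 4976 to 7845 CPM and fresh tissue had 19596 to 23586 CPM. Summed over 6 markers of dividing cells explants with vesicles had 265 to 342 CPM, explants without had 219 to 371 CPM and fresh tissue had 34.4 to 52.4 CPM. Higher in explants were also the sums of 6 endothelial markers (327 to 734 CPM with vesicles, 402 to 606 CPM without and 241 to 317 CPM fresh), while 6 sperm and late germ cell markers summed lower (5.04 to 8.92 CPM with vesicles, 5.19 to 10.6 CPM without and 33.2 to 65.3 CPM fresh). Sums overlapped fresh tissue, reaching higher in explants, over 8 fibroblast markers (1077 to 11493 CPM with vesicles, 1385 to 15858 CPM without and 569 to 2296 CPM fresh) and 8 smooth muscle markers (690 to 4414 CPM with vesicles, 1266 to 4558 CPM without and 662 to 1696 CPM fresh). Over 7 leukocyte markers they were 37.8 to 65.3 CPM with vesicles, 49.1 to 65.9 CPM without and 14.7 to 39.1 CPM fresh, and 3 erythroid markers summed to at most 0.482 CPM in any library. In bulk tissue, fewer cells of a type and less RNA per cell cannot be told apart, and the part of tissue make-up in the results that follow was not tested.

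The mitochondrially encoded protein-coding genes made up a smaller share of the library counts in both kinds of explant than in fresh tissue. The 13 genes held 6.84 ± 0.388% of counts in explants with vesicles (SD, n = 5), 6.86 ± 0.598% in explants without vesicles leaving out replicate 3 (n = 4), and 10.1 ± 1.25% in fresh tissue (n = 5). With replicate 3 the culture mean was 5.52 ± 3.03% (n = 5). Library by library, explants with vesicles held 7.24, 6.40, 6.64, 6.66 and 7.26%, explants without held 7.25, 7.48, 0.179, 6.23 and 6.48%, and fresh tissue held 10.3, 8.91, 8.69, 11.2 and 11.4%. No explant library of either kind reached the lowest fresh library.

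The nuclear members moved far less as a group. They held 0.490 ± 0.0174% of counts in explants with vesicles, 0.502 ± 0.0330% in explants without, and 0.520 ± 0.0159% in fresh tissue (SD, n = 5 each), and the 4 cultures other than replicate 3 held 0.454 to 0.547%. These shares include the mitochondrial counts in the total. Of nuclear counts only, the nuclear members held 0.5271 ± 0.0180% with vesicles, 0.532 ± 0.0396% without and 0.5795 ± 0.0150% in fresh tissue. On that scale every library with vesicles (at most 0.547%) lay below every fresh library (at least 0.563%). Explants without vesicles ran between 0.487 and 0.592% and overlapped fresh tissue. The ratio of mitochondrially to nuclear encoded respiratory counts was 14.0 ± 1.10 in explants with vesicles, 13.7 ± 0.843 in explants without (replicate 3 left out, where it was 0.353), and 19.4 ± 2.77 in fresh tissue. No test was made of these sums, which describe the libraries.

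**Figure D1:**
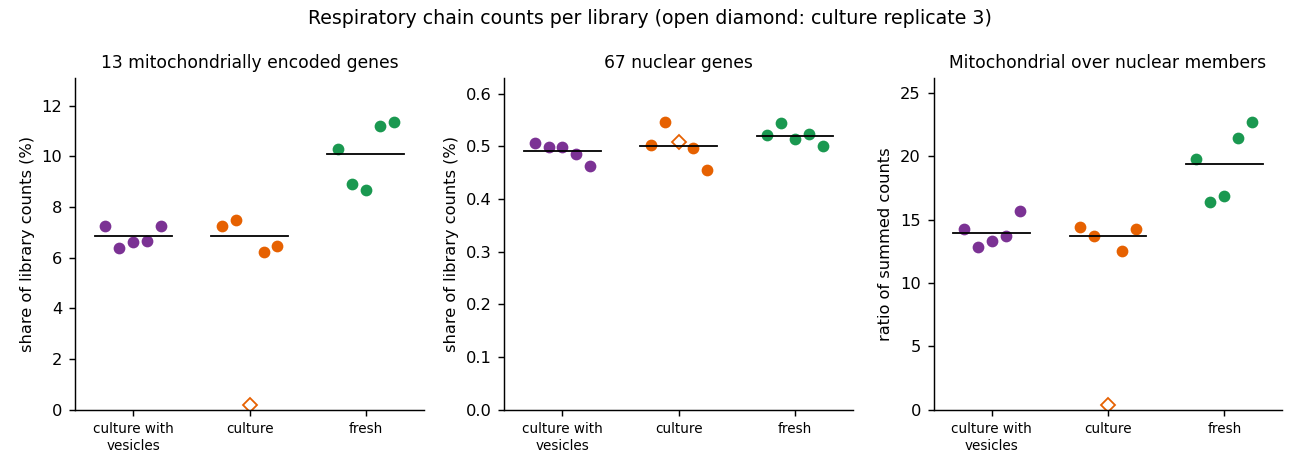
Share of library counts (%) held by the 13 mitochondrially encoded genes (left) and the 67 nuclear members (middle), and the ratio of the summed counts (right), for each library of explants cultured with vesicles, explants cultured without and fresh tissue. Points are libraries, lines are group means (the culture line leaves out replicate 3, the open diamond), and every explant library lies below the lowest fresh library in the left panel while replicate 3 sits at 0.179%.

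Among the mitochondrial genes, the widest gap between explants and fresh tissue was in CYTB, the only mitochondrially encoded subunit of complex III, which carries haem. CYTB stood at 3195, 2509, 3418, 3166 and 2572 CPM in explants with vesicles, at 3155, 3352, 33.3, 3008 and 2017 CPM in explants without, and at 7853, 6933, 7774, 9965 and 10187 CPM in fresh tissue. Every fresh library stood well above every explant library of both kinds. Without culture replicate 3, CYTB fell in explants with vesicles by 1.51 ± 0.16 on the log2 scale (SE; edgeR adjusted p = 2.82e-06), and in explants without by 1.56 ± 0.18 (adjusted p = 5.43e-06). In the fit of all 15 libraries its log2 change was -1.52 ± 0.64 with vesicles (adjusted p = 0.0575) and -1.88 ± 0.65 without (adjusted p = 0.0229), and the last call was lost when only the culture and fresh libraries were fitted.

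COX2, the complex IV subunit that takes electrons from cytochrome c, had 4761, 4710, 4903, 4554 and 4945 CPM in explants with vesicles, 4687, 5800, 108, 4214 and 4242 CPM in explants without, and 9140, 7533, 8137, 10181 and 9993 CPM in fresh tissue. The explant and fresh ranges did not overlap. Leaving out culture replicate 3, its log2 change was -0.91 ± 0.12 with vesicles (adjusted p = 1.80e-05) and -0.92 ± 0.13 without (adjusted p = 3.50e-05). With all 15 libraries these were -0.91 ± 0.56 and -1.24 ± 0.57, and neither was called (adjusted p = 0.188 and 0.077). COX3, the third mitochondrially encoded subunit of complex IV, had 6478 to 7315 CPM in explants with vesicles, 5782 to 8230 CPM in explants without (127 CPM in replicate 3), and 9487 to 12843 CPM in fresh tissue, which again did not overlap. COX1 was the exception among the 13. This catalytic subunit of complex IV, which reduces oxygen, had 28904, 25700, 23956, 28129 and 27836 CPM in explants with vesicles, 27832, 27297, 1418, 25000 and 27523 CPM in explants without, and 32333, 27702, 20388, 33006 and 31404 CPM in fresh tissue. The ranges overlapped, with fresh replicate 3 the lowest of the libraries other than culture replicate 3. Leaving out that library, the log2 change of COX1 was -0.10 ± 0.14 with vesicles (adjusted p = 0.562) and -0.10 ± 0.15 without (adjusted p = 0.594), and with all libraries it was -0.11 ± 0.48 and -0.41 ± 0.48 (adjusted p = 0.871 and 0.495).

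The 7 mitochondrial subunits of complex I (ND1 to ND6 and ND4L), which form its proton-pumping membrane core, all lay lower in explants. ND2 had 3607, 3741, 3738, 3702 and 3825 CPM in explants with vesicles, 3489, 4272, 11.6, 3550 and 3806 CPM in explants without, and 6116, 5454, 7026, 8143 and 10131 CPM in fresh tissue. The explants with vesicles were tightly grouped, and the fresh libraries spread widely above them. ND3 had 543 to 666 CPM with vesicles, 525 to 708 CPM without (1.82 in replicate 3), and 932 to 1412 CPM fresh. Leaving out culture replicate 3, the log2 changes of these 7 genes ran between -0.98 and -0.41 with vesicles and between -0.96 and -0.44 without, and all 7 were called in both comparisons. With all 15 libraries they ran between -0.99 and -0.41 with vesicles and between -1.29 and -0.75 without, and 0 of the 7 were called. ND2 and ND3 were at the lower ends of these ranges, and ND4L, ND5 and ND6 at the upper ends.

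ND6 is the only protein gene on the other strand of mitochondrial DNA, and in human cells its messenger lacks a stable poly(A) tail. ND6 had 313, 280, 320, 333 and 333 CPM in explants with vesicles, 306, 292, 17.2, 313 and 319 CPM in explants without, and 390, 408, 405, 462 and 441 CPM in fresh tissue. Its groups did not overlap either, and its log2 change leaving out culture replicate 3 was -0.41 ± 0.07 with vesicles (adjusted p = 0.000256) and -0.44 ± 0.08 without (adjusted p = 0.000236). With all libraries it was -0.41 ± 0.46 and -0.75 ± 0.46, not called (adjusted p = 0.469 and 0.176). No source used here says whether the counting used the strand, so reads of ND6 and of RNA from the opposite strand cannot be told apart.

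ATP6, which forms the proton channel of complex V with the nuclear c-ring, had 8539, 7914, 8019, 7892 and 8705 CPM in explants with vesicles, 8367, 10539, 21.2, 7291 and 7632 CPM in explants without, and 13329, 11453, 10809, 15596 and 15059 CPM in fresh tissue. ATP8, a small partner of ATP6 that shares its transcript, had 1322 to 1638 CPM in explants with vesicles, 1242 to 1722 CPM in explants without (0.26 CPM, or 5 counts, in replicate 3) and 1734 to 2586 CPM in fresh tissue. In both genes the fresh libraries all lay above the explant libraries, by a narrow margin between culture replicate 2 and the lowest fresh library. Leaving out culture replicate 3, ATP6 fell in explants with vesicles by 0.68 ± 0.14 on the log2 scale (adjusted p = 0.000621) and in explants without by 0.64 ± 0.15 (adjusted p = 0.0018). With all libraries its changes were -0.69 ± 0.75 and -0.97 ± 0.75, not called (adjusted p = 0.462 and 0.290). The coding regions of ATP8 and ATP6, and of ND4L and ND4, overlap, so how reads were divided between them rests on the authors' counting. The cat genome is also known to carry nuclear copies of part of mitochondrial DNA, and how reads matching both were counted is not given.

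**Figure D2:**
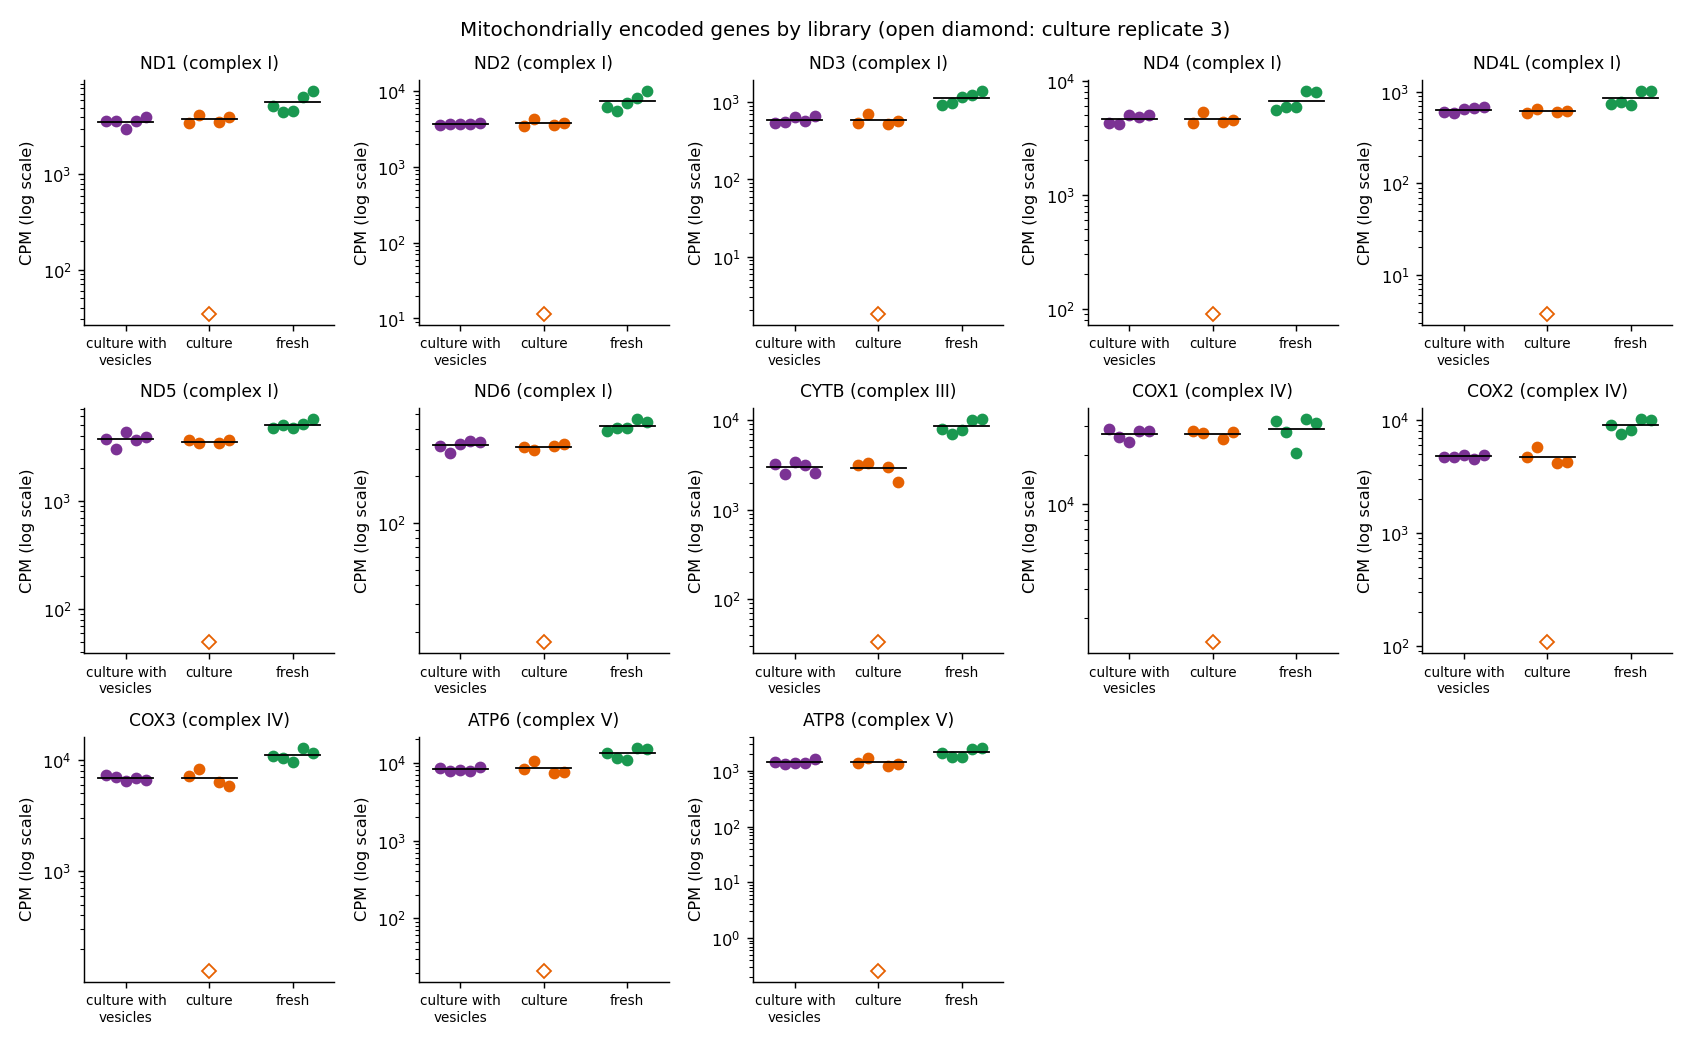
CPM on a log scale of the 13 mitochondrially encoded genes in each library, by group, with the mean of each group as a line (culture without replicate 3). In 12 of the 13 panels the explant libraries of both kinds lie below all 5 fresh libraries, COX1 being the exception, and culture replicate 3 (open diamond) lies lowest in all 13.

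Counted over the 13 genes, the fit of all 15 libraries called 0 in explants with vesicles and 1 (CYTB) in explants without, both against fresh tissue. The fit without culture replicate 3 called 12 in each, all lower and all but COX1, with median log2 changes of -0.66 with vesicles and -0.58 without. Over all genes tested, the called share was 52.9% with vesicles and 54.3% without in 15 libraries, and 63.0% and 59.9% without replicate 3, of which 30.9% and 29.0% of genes were called lower. A fit of the vesicle-treated and fresh libraries alone, which holds no culture library, called the same number, 12. In both comparisons with fresh tissue, 12 of 13 ranges of CPM did not overlap, all 5 culture libraries included, where 24.0% of all genes tested lay wholly lower with vesicles and 20.4% without.

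The make-up of the mitochondrial pool differed along with its size. COX1 held 39.3 ± 1.73% of the counts of the 13 genes in explants with vesicles, 39.4 ± 2.44% in explants without (replicate 3 left out), and 28.9 ± 3.14% in fresh tissue. CYTB held 4.51, 3.85, 5.20, 4.57 and 3.63% with vesicles, 4.58, 4.42, 4.74 and 3.06% without, and 7.90, 7.81, 9.38, 8.69 and 8.87% fresh. These shares did not overlap between explants and fresh tissue, COX1 being higher and CYTB lower in every explant library. Apart from culture replicate 3, ND6 held much the same share throughout, at 0.43 to 0.49% with vesicles, 0.39 to 0.49% without and 0.38 to 0.49% fresh. Culture replicate 3 again stood apart, with 74.0% of its mitochondrial counts in COX1, so its loss of mitochondrial counts was uneven: the mean of the other 4 cultures exceeded it 19.0 times in COX1, 17.9 times in ND6, 86.5 times in CYTB and 399 times in ATP6.

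**Figure D3:**
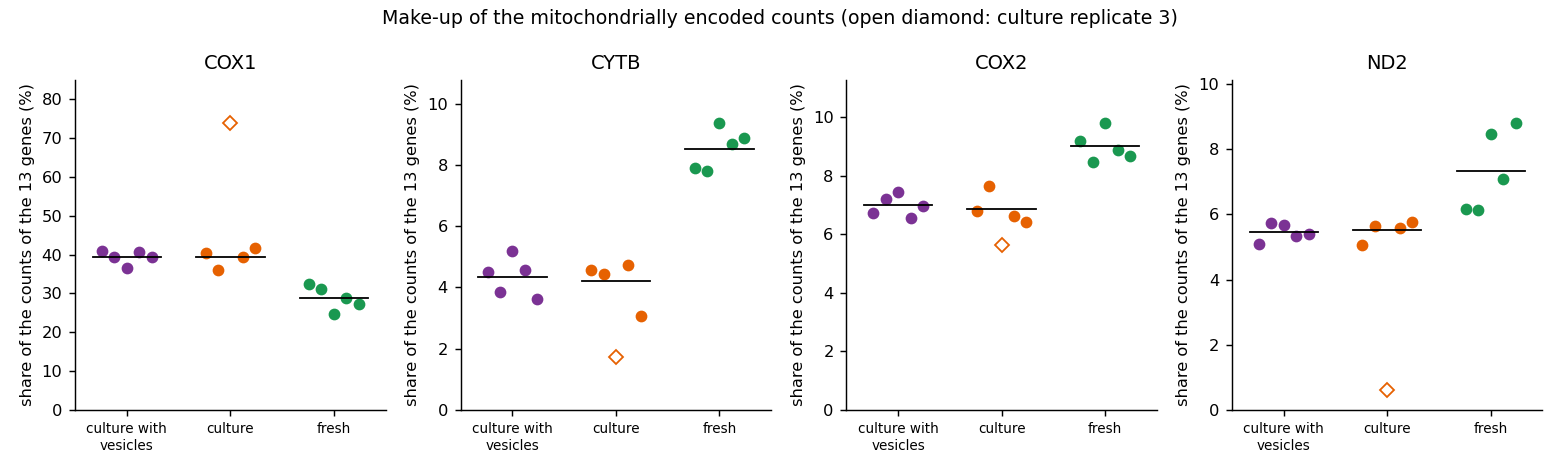
Share (%) of the summed counts of the 13 mitochondrially encoded genes held by COX1, CYTB, COX2 and ND2 in each library, by group, with group means as lines (culture without replicate 3). COX1 takes 36.0 to 41.7% in explant libraries other than culture replicate 3 (open diamond, 74.0%) and 24.6 to 32.5% in fresh tissue, and CYTB lies lower in all explant libraries.

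The nuclear members did not follow one direction against fresh tissue. In explants with vesicles 7 of 67 rose and 15 fell, where 27.4% and 25.5% of all genes tested did (edgeR, all 15 libraries). In explants without, 9 rose and 15 fell, where 28.7% and 25.6% of all genes did. Without culture replicate 3 these counts became 18 and 22 with vesicles (32.1% and 30.9% of all genes), and 15 and 21 without (30.9% and 29.0%). Called nuclear members were thus 35.8% of the 67 in culture against fresh with all libraries, against 54.3% of all genes tested. Over all 67, called or not, the median log2 change was 0.00 against 0.04 over all genes, and the median size of the change was 0.29 on the log2 scale against 0.78 over all genes, and 2 members (NDUFA1 and NDUFA2) were called with a change over 2-fold, where 36.4% of all genes were. Counts moved with single libraries. In explants without vesicles, leaving out fresh replicate 3 or 5 gave 4 higher, and leaving out culture replicate 5, fresh replicate 2 or fresh replicate 4 gave 9 lower; with vesicles, leaving out vesicle replicate 4, fresh replicate 1 or fresh replicate 5 gave 4 higher.

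**Figure D4:**
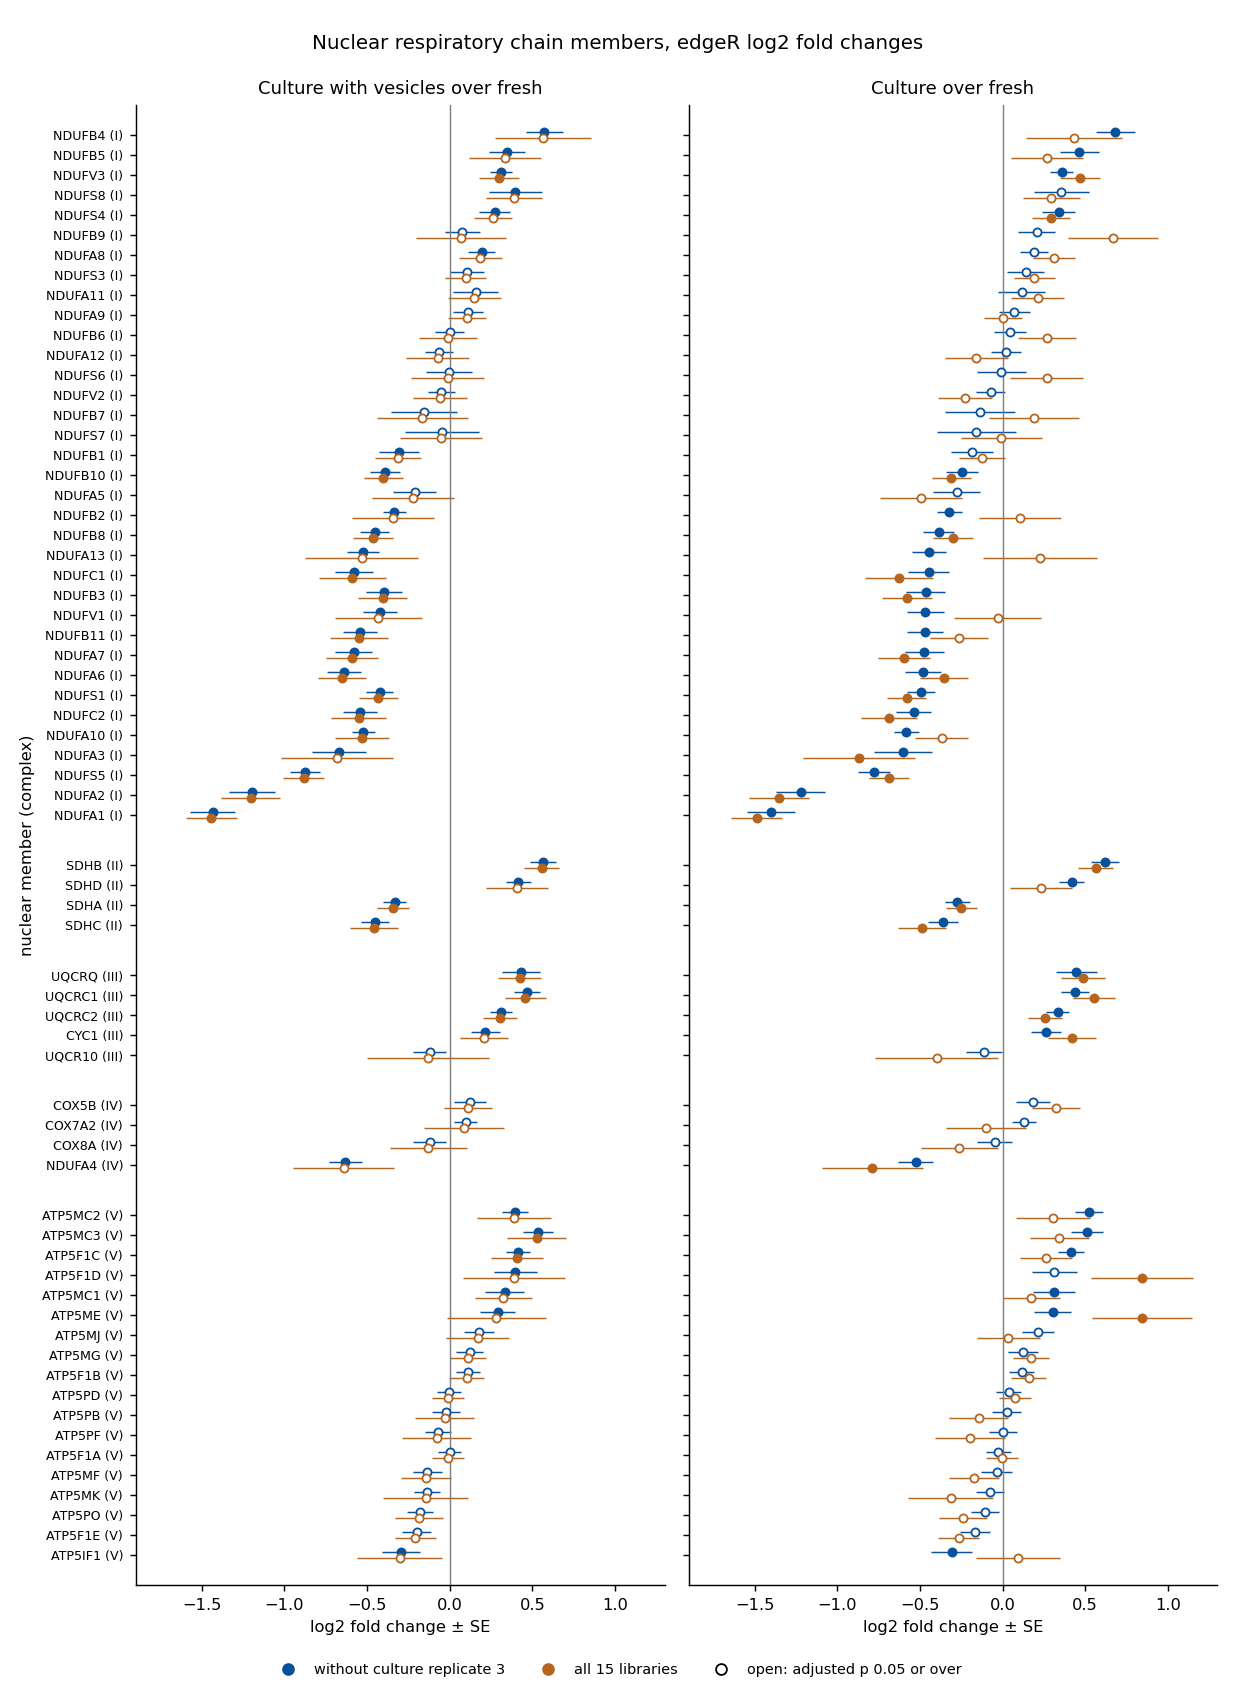
Log2 fold change with its SE (edgeR) of the nuclear members reported here, in explants with vesicles over fresh tissue (left) and explants without over fresh tissue (right), grouped by complex, in all 15 libraries (brown) and without culture replicate 3 (blue), filled where the adjusted p is under 0.05. Most complex I members lie left of 0 down to NDUFA1 at -1.49, 4 of the 5 complex III members lie right of 0, and most complex V members sit near 0.

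Complex I, the NADH dehydrogenase, supplied 36 of the 67 nuclear members and held most of those that fell. In culture against fresh 2 of its 36 nuclear members rose and 12 fell with all libraries, and 4 rose and 17 fell without culture replicate 3. In explants with vesicles 1 rose and 13 fell, and 6 rose and 18 fell without that library. Over all genes tested 28.7% rose and 25.6% fell in culture, and 27.4% and 25.5% with vesicles. Without that library these shares were 30.9% and 29.0% in culture, and 32.1% and 30.9% with vesicles. They are also the background for the complexes that follow. Summed over the 36, complex I took 0.158 ± 0.00671% of counts in explants with vesicles, 0.171 ± 0.0243% in explants without (0.162 ± 0.0130% and n = 4 without replicate 3) and 0.199 ± 0.00768% in fresh tissue (SD, n = 5 each).

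NDUFA1, a short membrane subunit needed to assemble the complex, had the largest change of any nuclear member. NDUFA1 stood at 34.9, 35.8, 39.1, 39.0 and 30.1 CPM in explants with vesicles, at 32.9, 42.9, 26.9, 34.4 and 36.1 CPM in explants without, and at 94.8, 134, 85.2, 82.6 and 89.6 CPM in fresh tissue. Every fresh library lay well above every explant library, fresh replicate 2 being the highest. The log2 change was -1.44 ± 0.16 with vesicles (adjusted p = 2.04e-06) and -1.49 ± 0.16 without (adjusted p = 1.59e-06). NDUFA2, an accessory subunit of the NADH-oxidising arm, had 23.3, 24.3, 25.7, 21.5 and 17.5 CPM with vesicles, 18.7, 28.2, 13.1, 18.8 and 22.6 CPM without, and 53.0, 53.9, 42.3, 51.0 and 58.4 CPM fresh. Its groups did not overlap with fresh tissue, and the log2 change was -1.20 ± 0.18 with vesicles (adjusted p = 4.90e-05) and -1.35 ± 0.18 without (adjusted p = 1.71e-05).

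NDUFS5, an accessory subunit on the intermembrane side, had 68.6, 68.7, 63.6, 62.7 and 58.7 CPM in explants with vesicles, 68.4, 80.1, 93.6, 65.1 and 62.4 CPM in explants without, and 125, 123, 98.6, 125 and 123 CPM in fresh tissue. The nearest libraries were culture replicate 3 and fresh replicate 3, which still did not cross. It fell by 0.88 ± 0.12 on the log2 scale with vesicles (adjusted p = 2.69e-05) and by 0.69 ± 0.12 without (adjusted p = 0.000256). NDUFS1, the largest subunit, which carries iron-sulfur clusters of the NADH-oxidising arm, had 73.3 to 90.5 CPM with vesicles, 58.0 to 82.0 CPM without and 98.6 to 124 CPM fresh, with log2 changes of -0.43 ± 0.12 (adjusted p = 0.0056) and -0.58 ± 0.12 (adjusted p = 0.000635). The calls of these 4 genes held in every fit that left out 1 library, in both comparisons. Their log2 changes in culture without culture replicate 3 were -1.40 for NDUFA1, -1.22 for NDUFA2, -0.78 for NDUFS5 and -0.49 for NDUFS1.

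Subunits of the NADH-oxidising arm differed in direction. NDUFV1, which binds NADH and flavin, had 58.0, 58.2, 57.3, 58.3 and 46.4 CPM in explants with vesicles, 52.4, 60.8, 152, 59.0 and 44.0 CPM in explants without, and 72.9, 85.9, 70.2, 79.1 and 67.5 CPM in fresh tissue. Fresh libraries lay above all explant libraries except culture replicate 3, which was the highest of all 15. Its log2 change in culture was -0.03 ± 0.26 with all libraries (adjusted p = 0.936) and -0.47 ± 0.11 without that library (adjusted p = 0.00228). NDUFV3, a small accessory subunit beside NDUFV1, had 31.2 to 36.7 CPM with vesicles, 33.9 to 50.5 CPM without and 26.5 to 28.3 CPM fresh, and rose in culture by 0.47 ± 0.12 (log2, adjusted p = 0.00404) and with vesicles by 0.30 ± 0.12 (adjusted p = 0.0483), the culture change being 0.36 without culture replicate 3. NDUFS4, an accessory subunit that helps join the arm to the complex, had 35.6 to 48.1 CPM with vesicles, 36.6 to 47.5 CPM without and 31.1 to 36.0 CPM fresh, with log2 changes of 0.26 ± 0.11 (adjusted p = 0.0654) and 0.29 ± 0.11 (adjusted p = 0.0415), the last being 0.34 without culture replicate 3. The NDUFV3 call with vesicles was lost in 13 of 15 leave-one-out fits (all but those without culture replicate 2 or 3), and that of NDUFS4 in culture was lost without any 1 of vesicle replicates 3 and 4, culture replicates 2, 4 and 5 and fresh replicates 1, 3, 4 and 5.

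By module, 2 of the 10 nuclear subunits of the NADH-oxidising arm rose and 4 fell in culture against fresh with all libraries, or 2 and 5 without culture replicate 3. Of 21 further nuclear subunits, mostly of the membrane arm, 0 rose and 8 fell, or 2 and 12 without replicate 3. Over all genes tested 28.7% rose and 25.6% fell, or 30.9% and 29.0% without replicate 3. The 2 that rose were NDUFB4 and NDUFB5, named after their values were seen. NDUFB4, a membrane-arm accessory subunit, had 27.6, 34.1, 27.7, 32.1 and 24.7 CPM with vesicles, 27.5, 36.0, 7.22, 35.2 and 27.5 CPM without, and 19.6, 20.2, 18.4, 21.2 and 19.5 CPM fresh. All explant libraries but culture replicate 3 lay above the fresh ones.

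Complex II, succinate dehydrogenase, is wholly nuclear, and its 4 subunits split. SDHB, the iron-sulfur subunit, had 47.1, 48.4, 46.7, 51.0 and 43.7 CPM in explants with vesicles, 45.7, 50.3, 41.1, 51.0 and 49.8 CPM in explants without, and 32.3, 28.7, 29.4, 36.8 and 34.0 CPM in fresh tissue. Every explant library was higher than every fresh library. SDHB rose by 0.56 ± 0.11 on the log2 scale in both comparisons (adjusted p = 0.000392 with vesicles and 0.000357 without), with the call kept in every leave-one-out fit. The culture change was 0.62 without culture replicate 3.

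SDHC, which anchors the enzyme in the membrane and helps bind ubiquinone, had 47.7, 54.7, 52.5, 45.6 and 49.9 CPM with vesicles, 51.1, 63.3, 31.8, 51.5 and 47.6 CPM without, and 66.9, 71.1, 72.9, 70.3 and 63.1 CPM fresh. The vesicle and fresh libraries did not overlap, and culture replicate 2 just passed the lowest fresh library. SDHC fell by 0.46 ± 0.14 with vesicles (adjusted p = 0.0143) and by 0.49 ± 0.14 without (adjusted p = 0.00962), or by 0.36 without them when culture replicate 3 was left out. SDHA, the flavin-bearing catalytic subunit, had 141, 141, 141, 144 and 133 CPM with vesicles, 145, 147, 163, 156 and 137 CPM without, and 149, 181, 183, 185 and 190 CPM fresh, where replicate 1 lay apart. Its log2 change was -0.34 ± 0.10 with vesicles (adjusted p = 0.00701) and -0.25 ± 0.10 without (adjusted p = 0.0379), the last being -0.27 without culture replicate 3. The culture call was lost in 12 of 15 leave-one-out fits, all but those without vesicle replicate 4, culture replicate 3 or fresh replicate 1, and also without the filter on low counts and with only the culture and fresh libraries fitted.

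SDHD, the other membrane anchor, had 107, 115, 126, 121 and 119 CPM with vesicles, 111, 121, 49.9, 119 and 120 CPM without, and 83.1, 86.7, 91.2, 80.6 and 101 CPM fresh. Apart from culture replicate 3, explants lay above fresh tissue. SDHD was not called with all libraries (log2 change 0.41 ± 0.19 with vesicles and 0.23 ± 0.19 without, adjusted p = 0.0802 and 0.308), but rose by 0.42 in both comparisons without that library (SE 0.07 and 0.08, adjusted p = 0.000221 and 0.000364).

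In complex III, the cytochrome bc1 complex, the nuclear subunits that were called lay on the side opposite to the mitochondrial one. Of 5 nuclear members 3 rose with vesicles and 4 rose without, and 0 fell, and without culture replicate 3 it was 4 and 0 in each comparison. UQCRC1, a core scaffold subunit, had 127, 117, 110, 116 and 105 CPM in explants with vesicles, 114, 112, 164, 120 and 105 CPM in explants without, and 80.6, 89.0, 73.1, 94.4 and 81.4 CPM in fresh tissue. No explant library overlapped the fresh ones. UQCRC1 rose by 0.46 ± 0.13 with vesicles (log2, adjusted p = 0.00658) and by 0.55 ± 0.13 without (adjusted p = 0.00172), or by 0.44 without them when culture replicate 3 was left out.

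UQCRQ, a small subunit that contacts cytochrome b, had 38.0, 39.3, 38.8, 38.2 and 27.5 CPM with vesicles, 37.2, 44.2, 43.1, 33.2 and 32.5 CPM without, and 29.6, 28.5, 24.1, 27.8 and 25.7 CPM fresh. Only vesicle replicate 5 lay within the fresh range. UQCRQ rose by 0.42 ± 0.13 with vesicles (log2, adjusted p = 0.0142) and by 0.49 ± 0.13 without (adjusted p = 0.00586), or by 0.45 without them when culture replicate 3 was left out. CYC1, the cytochrome c1 that hands electrons to cytochrome c, had 84.8, 78.6, 70.8, 83.6 and 65.6 CPM with vesicles, 76.0, 84.9, 127, 84.7 and 71.8 CPM without, and 67.5, 71.8, 61.3, 69.8 and 62.0 CPM fresh. The culture libraries lay just above the highest fresh library, while the vesicle libraries overlapped the fresh ones. Its log2 change was 0.21 ± 0.15 with vesicles (adjusted p = 0.25) and 0.42 ± 0.15 without (adjusted p = 0.0236), the last being 0.26 ± 0.09 without culture replicate 3 (adjusted p = 0.0235) and losing its call without fresh replicate 3 or 5.

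UQCRC2, the partner core subunit, was the remaining member that rose, with log2 changes of 0.30 ± 0.10 with vesicles (adjusted p = 0.0227) and 0.25 ± 0.10 without (adjusted p = 0.0484), the last being 0.33 without culture replicate 3. Its culture call was lost in 12 of 15 leave-one-out fits (all but those without culture replicate 3, culture replicate 5 or fresh replicate 4), and its call with vesicles without vesicle replicate 4 or fresh replicate 1. UQCR10 was not called in either comparison, with a log2 change of -0.12 ± 0.10 with vesicles and -0.11 ± 0.11 without when culture replicate 3 was left out (adjusted p = 0.307 and 0.387).

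Complex IV, cytochrome c oxidase, was represented by 4 nuclear members, of which 1 fell in explants without vesicles and 0 were called in explants with them, or 1 fell in each without culture replicate 3. NDUFA4, which binds the edge of complex IV, had 71.9, 63.7, 53.4, 71.3 and 55.6 CPM in explants with vesicles, 72.4, 72.9, 13.3, 70.5 and 56.6 CPM in explants without, and 99.8, 106, 95.9, 98.8 and 92.8 CPM in fresh tissue. The fresh libraries were tightly grouped above all explant libraries. Its log2 change was -0.64 ± 0.31 with vesicles (adjusted p = 0.0915) and -0.79 ± 0.31 without (adjusted p = 0.0415), and -0.63 ± 0.10 and -0.53 ± 0.11 without culture replicate 3 (adjusted p = 8.40e-05 and 0.000733). The culture call with all libraries was lost without culture replicate 5 or any 1 fresh library. The other 3 members, COX5B, COX7A2 and COX8A, structural subunits around the catalytic core, were not called in any of these fits, with log2 changes between -0.12 and 0.19 without culture replicate 3.

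In complex V, 2 of 18 nuclear members rose and 0 fell in each comparison with all libraries. ATP5F1A, the alpha subunit of the catalytic head, had 385, 383, 382, 389 and 381 CPM in explants with vesicles, 369, 412, 420, 389 and 340 CPM in explants without, and 375, 400, 382, 418 and 357 CPM in fresh tissue. The groups overlapped throughout, with log2 changes of -0.01 ± 0.10 with vesicles (adjusted p = 0.952) and 0.00 ± 0.10 without (adjusted p = 0.989), the last being -0.03 without culture replicate 3. ATP5F1B, the catalytic beta subunit, had 448 to 514 CPM with vesicles, 452 to 569 CPM without and 414 to 494 CPM fresh, and was not called (log2 0.10 ± 0.10 and 0.16 ± 0.10, adjusted p = 0.434 and 0.214).

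The calls in complex V depended on single libraries. ATP5F1D, the delta subunit of the central stalk, had 73.7, 82.2, 80.2, 76.6 and 50.5 CPM with vesicles, 66.1, 81.7, 224, 67.8 and 58.5 CPM without, and 56.6, 63.2, 50.0, 56.2 and 51.4 CPM fresh. Culture replicate 3 lay far above the rest, and the other explant libraries overlapped fresh tissue. Its log2 change in culture was 0.84 ± 0.31 with all libraries (adjusted p = 0.0302) and 0.31 ± 0.14 without that library (adjusted p = 0.0623), and the call was also lost without fresh replicate 3, 4 or 5. ATP5ME, a small membrane subunit, likewise had a log2 change of 0.84 ± 0.30 in culture (adjusted p = 0.028) and of 0.30 ± 0.11 without culture replicate 3 (adjusted p = 0.0302), with the call lost without fresh replicate 3 or 5. ATP5IF1, the inhibitor that binds the synthase when the proton gradient fails, turned direction: its log2 change in culture was 0.09 ± 0.25 with all libraries (adjusted p = 0.774) and -0.31 ± 0.12 without replicate 3 (adjusted p = 0.0464), where that library stood at 159 CPM and the other cultures at 52.8 to 71.5 CPM.

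Leaving out culture replicate 3, complex V held 6 members higher and 1 lower with vesicles, and 5 and 1 without. These included all 3 genes encoding the proton-carrying c-ring subunit, ATP5MC1, ATP5MC2 and ATP5MC3, and the gamma shaft ATP5F1C (named after their values were seen). ATP5MC3 had 118, 127, 127, 133 and 110 CPM with vesicles, 106, 134, 57.6, 128 and 116 CPM without, and 87.3, 93.8, 83.6, 91.0 and 71.2 CPM fresh. Culture replicate 3 alone lay below fresh tissue, and the other explant libraries lay above it. ATP5MC3 and ATP5F1C also rose with vesicles in the fit of all 15 libraries (log2 0.53 ± 0.18 and 0.41 ± 0.16, adjusted p = 0.0218 and 0.0387). The first call was lost without fresh replicate 5, and the second without any 1 of the vesicle replicates or of fresh replicates 1, 2, 3 and 5.

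**Figure D5:**
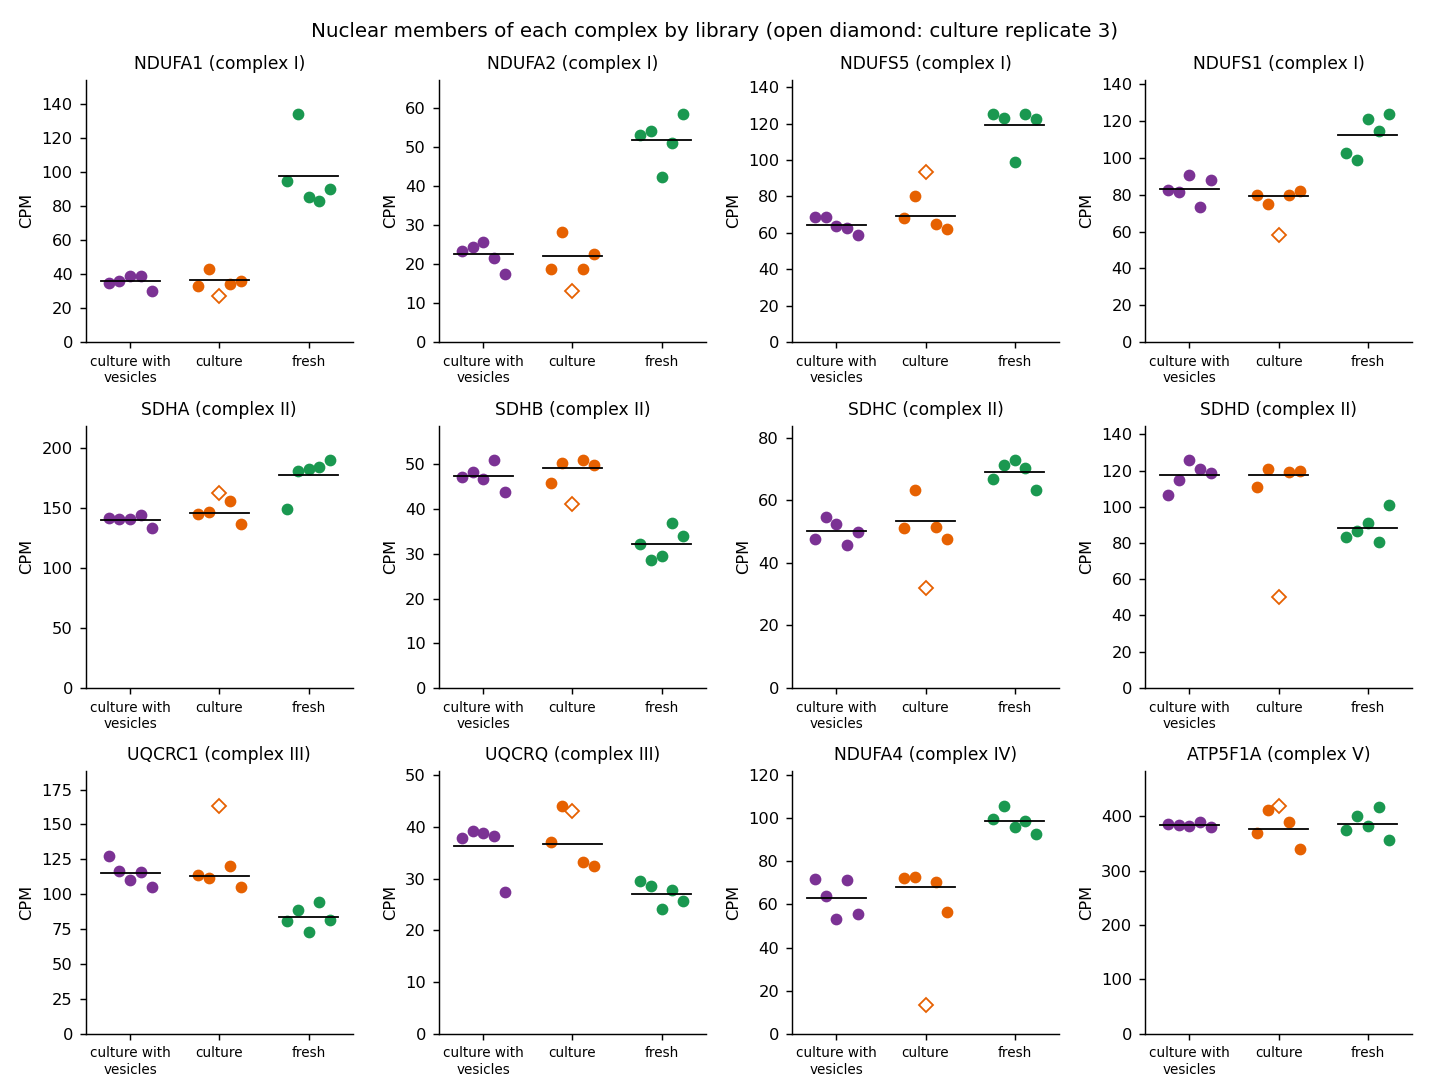
CPM of 12 nuclear members in each library, by group, with group means as lines (culture without replicate 3, the open diamond). NDUFA1, NDUFA2, NDUFS5, NDUFS1 and NDUFA4 lie lower in all explant libraries than in fresh tissue, SDHB and UQCRC1 lie higher, and ATP5F1A overlaps throughout.

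Both comparisons with fresh tissue share the fresh libraries, so likeness between them is not a separate result. With vesicles against fresh, 21 nuclear members had ranges of CPM wholly lower and 10 wholly higher, or 31 of 67, where 49.2% of all genes tested did not overlap (24.0% lower and 25.3% higher). Without vesicles and with all libraries, 8 lay wholly lower and 6 wholly higher, where 40.5% of all genes did not overlap (20.4% lower and 20.2% higher). Same-numbered libraries of explants with vesicles and fresh tissue deviated together, and with the replicate number as a block NDUFS4, NDUFS8 and ATP5MC1 were also called higher with vesicles (adjusted p = 0.047, 0.0253 and 0.0447) and NDUFB1 lower (adjusted p = 0.0297), where 29.1% of all genes were called higher and 27.9% lower in that fit.

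No member differed past the test between explants with and without vesicles. In explants with vesicles against explants without, edgeR called 0 of 80 members and 0 of all 18038 genes (0.0%), and so did DESeq2 and limma. At an unadjusted p under 0.05 there were 2 nuclear members (NDUFA13 and NDUFB9) and 183 of all genes with all libraries, and 0 members and 155 of 18517 genes without culture replicate 3. The 13 mitochondrial genes had a median log2 difference of 0.33 with all libraries and of 0.01 without culture replicate 3, where they ran between -0.08 and 0.08. The 67 nuclear members ran between -0.16 and 0.11 without that library, with a median of -0.03. Of all 80 members, 0 had ranges that did not overlap between the explant groups, where 0.0832% of all genes tested did. The fits above did not use the replicate numbers, although same-numbered explant libraries deviated together (correlations 0.181 to 0.602). With the replicate number as a block, edgeR also called 0 of 80 members. A lack of calls does not show that vesicles were without effect.

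Among genes that build and supply the chain, nearly all assembly factors of complexes II to V that were called fell. Of 33 tested, 0 rose and 17 fell in explants with vesicles and 1 rose and 15 fell in explants without, with median log2 changes of -0.39 and -0.43 against 0.01 and 0.04 over all genes. Over all genes tested 27.4% rose and 25.5% fell with vesicles, and 28.7% rose and 25.6% fell without, which is also the background for the lists that follow. Without culture replicate 3, 1 of the 33 rose and 20 fell with vesicles and 1 rose and 18 fell without, where 32.1% of all genes rose and 30.9% fell with vesicles, and 30.9% rose and 29.0% fell without. COA7, an assembly factor for complex IV, had 14.1, 11.9, 12.7, 15.2 and 15.9 CPM with vesicles, 13.8, 13.7, 10.7, 15.4 and 11.8 CPM without, and 61.4, 68.8, 81.4, 77.2 and 84.8 CPM fresh. The groups were far apart, and COA7 fell by 2.42 ± 0.14 with vesicles (log2, adjusted p = 7.99e-09) and by 2.51 ± 0.14 without (adjusted p = 8.09e-09). FMC1, which helps assemble complex V in yeast, fell by 1.31 ± 0.15 with vesicles (adjusted p = 4.39e-06) and by 1.20 ± 0.15 without (adjusted p = 1.05e-05). Assembly factors of complex I split, 2 of 14 rising and 3 falling with vesicles and 3 rising and 4 falling without, or 4 and 5 with vesicles and 3 and 5 without when culture replicate 3 was left out. FOXRED1 fell (log2 -1.06 ± 0.18 and -0.87 ± 0.18, adjusted p = 0.000139 and 0.000701) and NDUFAF4 rose (0.75 ± 0.17 and 0.67 ± 0.17, adjusted p = 0.00167 and 0.00361). The changes in culture without culture replicate 3 were -2.44 for COA7, -1.32 for FMC1, -1.06 for FOXRED1 and 0.80 for NDUFAF4.

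Some alternative or tissue-restricted subunits changed by more than any member. NDUFA4L2, a relative of NDUFA4 known in human cells to be induced by low oxygen, had 39.3, 55.0, 44.1, 31.1 and 42.0 CPM in explants with vesicles, 54.8, 83.9, 46.0, 40.5 and 57.1 CPM in explants without, and 2.46, 2.89, 1.28, 1.79 and 0.979 CPM in fresh tissue. Even the lowest explant library stood far above the highest fresh library. NDUFA4L2 rose 22.3-fold with vesicles (log2 4.48 ± 0.30, adjusted p = 2.61e-08) and 29.8-fold without (4.90 ± 0.31, adjusted p = 1.48e-08), while NDUFA4 itself lay lower. HIGD1A, a hypoxia-induced protein that binds complex IV, rose by 2.45 ± 0.28 with vesicles (adjusted p = 3.37e-06) and 2.16 ± 0.27 without (adjusted p = 1.05e-05). COX4I2, the alternative form of COX4, rose by 1.66 ± 0.60 (adjusted p = 0.0299) and 2.33 ± 0.61 (adjusted p = 0.00468), but its explant libraries ran between 1.57 and 30.6 CPM and overlapped the fresh range of 2.06 to 4.90 CPM. Its call with vesicles was lost without vesicle replicate 2 or 5 or fresh replicate 3, 4 or 5. COX7A1, the form of COX7A typical of heart and skeletal muscle, fell by 1.51 ± 0.22 and 1.18 ± 0.22 (adjusted p = 3.58e-05 and 0.000305). Of the 7 genes tested in this list, 4 rose and 1 fell with vesicles, and 3 rose and 1 fell without, or 4 and 2 with vesicles and 4 and 1 without when culture replicate 3 was left out. The changes in culture were then 4.97 for NDUFA4L2, 2.36 for HIGD1A, 2.06 for COX4I2 and -1.15 for COX7A1.

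Of 8 regulators of respiratory genes, 4 rose and 0 fell in each comparison (5 and 0 without culture replicate 3), where 27.4% and 28.7% of all genes rose, with median log2 changes of 0.51 with vesicles and 0.45 without. PPARGC1B, a coactivator of mitochondrial biogenesis, had 25.5, 20.3, 17.0, 20.0 and 21.6 CPM with vesicles, 18.7, 11.4, 26.0, 18.8 and 16.8 CPM without, and 6.67, 3.85, 2.99, 2.89 and 2.83 CPM fresh. All explant libraries were higher, and the gene rose by 2.43 ± 0.27 (log2, adjusted p = 2.44e-06) and 2.25 ± 0.27 (adjusted p = 5.20e-06). PPRC1, a related coactivator, rose by 0.84 ± 0.11 and 0.71 ± 0.11 (adjusted p = 1.57e-05 and 7.62e-05). PPARGC1A, the better known member of that family, had log2 changes of -0.60 ± 0.37 and -0.66 ± 0.37 and was not called (adjusted p = 0.18 and 0.14), although leaving out fresh replicate 4 gave a lower call in culture. When culture replicate 3 was left out, PPARGC1B rose 4.28-fold in culture, and the log2 changes in culture were 0.70 for PPRC1 and -0.48 for PPARGC1A.

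In the machinery that makes mitochondrial RNA, 2 of 18 genes rose and 5 fell with vesicles, and 2 rose and 4 fell without, or 5 and 6 with vesicles and 3 and 6 without when culture replicate 3 was left out. The shares lower are near those of all genes (25.5% and 25.6% with all libraries), and the shares higher are under them (27.4% and 28.7%). MTERF1, a termination factor of mitochondrial transcription, fell by 0.98 ± 0.26 and 1.35 ± 0.26 on the log2 scale (adjusted p = 0.00476 and 0.000433), and TFB1M, which modifies mitochondrial ribosomal RNA, fell by 0.97 ± 0.16 and 0.80 ± 0.16 (adjusted p = 0.000115 and 0.000543), the culture changes being -1.14 and -0.79 without culture replicate 3. TFAM, which packages mitochondrial DNA and starts its transcription, had 22.7 to 27.2 CPM with vesicles, 10.4 to 26.6 CPM without and 22.8 to 30.2 CPM fresh, and was not called (log2 -0.07 ± 0.20 and -0.24 ± 0.20, adjusted p = 0.78 and 0.328). POLRMT, the mitochondrial RNA polymerase, had a log2 change of 0.65 ± 0.28 with vesicles (adjusted p = 0.0641) and rose by 0.89 ± 0.28 without (adjusted p = 0.0151), or by 0.47 ± 0.17 without culture replicate 3 (adjusted p = 0.0245), which also brought a call with vesicles (0.66 ± 0.16, adjusted p = 0.00228). LRPPRC, which stabilises mitochondrial messengers, rose by 0.52 ± 0.17 with vesicles (adjusted p = 0.016), and its change without them was 0.30 ± 0.17 (adjusted p = 0.137) with all libraries and 0.46 ± 0.10 without culture replicate 3 (adjusted p = 0.000856).

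Of 8 genes for mitochondrial DNA replication, 0 rose and 1 fell with vesicles and 2 rose and 1 fell without, or 2 and 1 with vesicles and 1 and 1 without when culture replicate 3 was left out. MGME1, a nuclease that trims replication ends, fell by 1.76 ± 0.16 and 1.80 ± 0.16 (log2, adjusted p = 3.16e-07 and 2.63e-07), and its culture change was -1.71 without culture replicate 3. POLG, the replicative polymerase, had a log2 change of 0.30 ± 0.28 with vesicles (adjusted p = 0.388) and rose by 0.73 ± 0.28 without (adjusted p = 0.0394). Leaving out culture replicate 3, it rose by 0.31 ± 0.09 with vesicles (adjusted p = 0.00754) and by 0.23 ± 0.09 without (adjusted p = 0.047). The call in culture with all libraries was lost without vesicle replicate 1 or 3 or fresh replicate 1, 2, 3 or 5. SSBP1, which coats single-stranded mitochondrial DNA, was not called (0.22 ± 0.18 and 0.09 ± 0.18, adjusted p = 0.312 and 0.684).

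Genes that feed the chain or serve it were called in both directions. Of 13 citric acid cycle genes, 3 rose and 1 fell with vesicles and 4 rose and 1 fell without, or 5 and 2 with vesicles and 6 and 2 without when culture replicate 3 was left out. DLST, a subunit of the 2-oxoglutarate dehydrogenase complex, rose by 1.01 ± 0.11 and 1.03 ± 0.11 (log2, adjusted p = 2.90e-06 and 2.49e-06), and IDH3A, the catalytic subunit of NAD-linked isocitrate dehydrogenase, by 0.72 ± 0.10 and 0.58 ± 0.10 (adjusted p = 3.54e-05 and 0.000239). Of 10 carriers and outer membrane proteins, 4 rose and 1 fell with vesicles and 5 rose and 0 fell without, or 5 and 1 with vesicles and 6 and 1 without when culture replicate 3 was left out. SLC25A5, an exchanger of ADP for ATP, rose by 1.20 ± 0.16 and 1.07 ± 0.16 (adjusted p = 2.08e-05 and 5.69e-05), and VDAC2, a pore of the outer membrane, by 0.60 ± 0.09 and 0.69 ± 0.09 (adjusted p = 6.28e-05 and 1.66e-05). Of 77 mitochondrial ribosomal proteins, which translate the 13 mitochondrial messengers, 21 rose and 11 fell with vesicles and 19 rose and 8 fell without, with median log2 changes of 0.09 and 0.16. The shares that rose are near the 27.4% and 28.7% of all genes, and the shares that fell are under the 25.5% and 25.6% of all genes. Without culture replicate 3 the counts were 28 and 16 with vesicles and 26 and 14 without, and the changes in culture were 0.96 for DLST, 0.63 for IDH3A, 1.19 for SLC25A5 and 0.70 for VDAC2.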

How the data were processed

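RNA was extracted from corpus epididymis and made into TruSeq Stranded mRNA libraries, per the labels' protocols. Tools listed without roles in the submitters' processing notes were StringTie 2.1.3b, Bowtie2 2.3.4.1, HISAT2 2.1.0 and Trimmomatic 0.38. Build, annotation and the strand setting of the counting are in none of the sources used here. The deposited values are raw counts per gene ID, whole numbers for 15 libraries, with 0 columns left unused. All 38995 IDs matched a RefSeq table, which gave the symbols. 

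Counts were filtered (filterByExpr, minimum count 10), scaled by TMM and tested 2-sided in edgeR 4.0.16 (R 4.3.3) with glmQLFit and glmQLFTest, group as the only term, all 15 libraries in a single fit and adjusted p-values over all genes tested. The test was checked on simulated data, drawn independently for each library. The simulation held no pairing between libraries and no library that stood apart, so it does not cover these features. Alternatives were DESeq2 1.42.0, limma 3.58.1 with quality weights, other scalings and filters, fits of the groups compared alone, leave-one-out fits and a replicate block. The numbers were treated as pairing explants with vesicles to fresh tissue (correlations of same-numbered deviations 0.242 to 0.362) and to explants without (0.181 to 0.602), but not explants without vesicles to fresh tissue (0.0327 to 0.344), where the pair of culture replicate 3 fell under 0.1.

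Members and gene lists were chosen with earlier results of these data known. Named were all 13 mitochondrial members, up to 3 called nuclear members a complex and direction with the smallest adjusted p in culture against fresh, a fixed list of core subunits, and from each further list up to 2 called genes with the smallest adjusted p plus 8 fixed regulators and isoforms; others are named where their counts or the library that stood apart called for it, after their values were seen. Transcript lengths were not used. Some members enter the counts and sums but are not reported here singly.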

Additional observations from a re-analysis of the deposited data

Results flagged for a closer look

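In each group of 5 libraries, the gap between the most extreme library and its nearest neighbour was set against the whole range of the group for the named members and the shares. Of 102 group values checked, 26 passed Dixon's critical value of 0.71, which chance passes about 1 time in 20 for a single value. The 26 cannot be set against that rate. The values share the same libraries and are not independent, and some members were named by their calls in these data. Culture replicate 3 gave 19 of the 26. It lay lowest in the mitochondrial genes ATP8 and COX2 (gap over range 0.721 in both), ND3 (0.74), ND4 (0.791), ND2 (0.816), ND1 (0.825), COX1 (0.893), ND4L (0.902), ND6 (0.912) and ND5 (0.933), in the share of mitochondrially encoded counts (0.829), and in NDUFA4 (0.727). It lay highest in UQCRC1 (0.75), CYC1 (0.763), ATP5IF1 (0.824), NDUFV3 (0.825), NDUFV1 (0.845), ATP5F1D (0.86) and ATP5ME (0.884).

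Explants with vesicles, replicate 5, lay lowest of their group in ATP5F1D (0.732), ATP5IF1 (0.739), UQCRQ (0.887) and NDUFV1 (0.91). Among fresh libraries, replicate 2 lay highest in NDUFA1 (0.762), replicate 1 lowest in SDHA (0.768) and replicate 3 lowest in NDUFS5 (0.897).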

How the results depend on the processing

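Leaving out single libraries gave 4 to 15 nuclear members higher, 9 to 21 lower and 1 to 12 mitochondrial members lower in explants without vesicles against fresh tissue, and 4 to 18, 13 to 22 and 0 to 12 with vesicles; the upper ends all came without culture replicate 3. That library was left out after its values had been seen in 2 further settings. In culture against fresh, nuclear members higher were 15 by limma-voom with quality weights, 4 with only the 2 groups fitted, 18 with the replicate block without culture replicate 3 and 15 with scaling from nuclear genes without it. Nuclear members lower were 9 without a filter on low counts and 9 with only the 2 groups fitted. Mitochondrial members lower were 2 by DESeq2, 7 by limma-voom and 0 with only the 2 groups fitted, and 12 without culture replicate 3 under each of the replicate block, DESeq2 and nuclear scaling. With vesicles against fresh, nuclear members higher were 17 by limma-voom, 2 with upper-quartile scaling, 15 with only the 2 groups fitted, and without culture replicate 3 they were 19 with the replicate block, 14 by DESeq2 and 16 with nuclear scaling. Nuclear members lower were 24 by limma-voom, 24 with only the 2 groups fitted, and 24 without culture replicate 3 under the replicate block and under DESeq2. Mitochondrial members lower were 1 by DESeq2, 5 by limma-voom, 1 with relative log expression scaling, 1 with upper-quartile scaling, 12 with only the 2 groups fitted, and 12 without culture replicate 3 under the block, DESeq2 and nuclear scaling. The cause of these moves was not tested. The replicate block with all 15 libraries gave 6 nuclear members higher and 15 lower in culture against fresh. In that block fit UQCRC2, ATP5ME and ATP5F1D were not called (adjusted p = 0.0583, 0.0625 and 0.0502). Between culture and fresh libraries only replicate 3, correlated at 0.0327, fell under the 0.1 set for pairing. The other 4, at 0.198 to 0.344, each correlated best with their own number. The block gave 10 higher and 16 lower with vesicles. Explants with vesicles against explants without gave 0 calls in every setting. As a share of nuclear counts only, the nuclear members held 0.5271% with vesicles and 0.5795% in fresh tissue. ATP5IF1 in culture against fresh ran between -0.3069 without culture replicate 3 and 0.2205 without culture replicate 5, and was -0.3375 by limma-voom, and without culture replicate 3 -0.3309 with the replicate block, -0.3456 by DESeq2 and -0.3101 with nuclear scaling. Over the named genes, 2266 other values kept direction and side of the threshold, 162 gained a call, 75 lost one and 84 moved. Depth limits ATP8 in culture replicate 3, where it rests on 5 counts.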

Other observations

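The RNAs that mitochondria need to translate the 13 messengers did not all lie lower in explants. The pair of mitochondrial ribosomal RNA genes together held 0.122 ± 0.0134% of counts in explants with vesicles (SD, n = 5), 0.165 ± 0.0653% in explants without (n = 4, replicate 3 left out) and 0.0604 ± 0.0122% in fresh tissue (n = 5). The gene listed as KEF43_r01 rose by 1.26 on the log2 scale with vesicles (edgeR adjusted p = 0.0363) and by 1.41 ± 0.48 without (adjusted p = 0.0214), or by 1.71 ± 0.22 when culture replicate 3 was left out. KEF43_r02 had a log2 change of 0.46 in culture with all libraries, which was not called, and rose by 0.78 without that library (adjusted p = 0.0142). The other cultures, at 195 to 520 CPM, overlapped fresh tissue at 135 to 271 CPM. With vesicles the log2 change of KEF43_r02 was 0.32 with and without that library, not called (edgeR adjusted p = 0.669 and 0.244). Ribosomal RNA is depleted by poly(A) selection, so these values describe what passed it.

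Of 22 mitochondrial transfer RNA genes, 17 were tested. With vesicles 1 rose and 2 fell against fresh tissue, and in culture 1 rose and 5 fell. Without culture replicate 3 the counts were 1 and 7 with vesicles, and 1 and 6 in culture. Over all genes tested, in all 15 libraries, 27.4% rose and 25.5% fell with vesicles, and 28.7% and 25.6% in culture. Without culture replicate 3 these shares were 32.1% and 30.9% with vesicles, and 30.9% and 29.0% in culture. The transfer RNA genes that fell with all libraries were scarce, at 1.54 to 11.5 CPM in fresh tissue. KEF43_t12, the most abundant at 265 to 377 CPM in fresh tissue, was not called in either comparison. The gene that rose in both was KEF43_t20, listed between ND6 and CYTB, with log2 changes of 2.64 with vesicles (adjusted p = 0.0007) and 2.42 without (adjusted p = 0.0013). ND6 and CYTB on either side of it, which lie on opposite strands, both lay lower. Transfer RNAs are shorter than most library inserts, and whether their counts come from mature or unprocessed RNA was not tested. These genes were chosen after their values were seen.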
